A study of Homo sapiens with 24 samples.

Results

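Antisense and long intergenic noncoding RNAs were examined in P3HR1, a Burkitt lymphoma cell line with Epstein-Barr virus. They were taken as all probe sets whose single gene symbol in the platform annotation ends in AS or IT and a number, for antisense and intronic transcripts, or starts with LINC. Of 2202 such probe sets of 1649 genes, 506 of 408 genes had a mean log2(intensity + 8) over the 24 arrays above 6.1082, the median of the 54613 probe sets that are not array controls. These 506 are 22.98% of the candidates, and the dimmer ones were not tested. Members were chosen by symbol and selected on this mean level over all arrays, so their levels are a description, and a mean over all 4 groups does not use the comparisons between them. A member near the threshold can still pass it only through the groups where it is high. They held 311 antisense probe sets of 254 genes, 185 LINC probe sets of 145 genes and 10 intronic probe sets of 9 genes.

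All cells carried the doxycycline-inducible vector pRTS1 and all were induced. The miR-28 cells made green fluorescent protein (GFP) together with the miR-28 precursor, and the control cells made GFP alone. Each vector had 2 bulk populations, A and B, induced 3 times each for 12 h and for 24 h, which gave 6 arrays in each of 4 groups: miR-28 12 h, control 12 h, miR-28 24 h and control 24 h. The labels give doxycycline as 0.1 ug/ml in one field and 1 ug/ml in another, alike for all groups. No uninduced cells were analysed here, so time compares 24 h with 12 h of induction. Mature miR-28 was not measured by the probe sets used here.

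A long noncoding RNA is a transcript that is spliced and polyadenylated much as a messenger RNA is but is not known to code for a protein. Antisense transcripts run on the opposite strand at a protein-coding gene and often start near that gene's own start, intronic transcripts lie within an intron, and LINC transcripts lie between genes. Many are made at low levels, and some act on the neighbouring gene, some in the cytoplasm as binding partners of proteins or microRNAs, and most have no settled role. A microRNA such as miR-28 guides Argonaute proteins to matching sites in RNA, mainly through its seed, the bases near its 5′ end. The mature sequences of this precursor are miR-28-3p and miR-28-5p, and miR-28-3p is shown as one of the products of what the vector adds to the cells, with the seed (bases 2 to 8) in capitals. It comes from RefSeq (GRCh38.p14) and lies at chr3:188688834-188688855 on the plus strand.
hsa-miR-28-3p: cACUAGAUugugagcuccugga

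Promoter windows are shown for 5 members whose values are described further on: EPB41L4A-AS1, GABPB1-AS1 and TSPOAP1-AS1, which were lower at 24 h than at 12 h in both genotypes, ZBED5-AS1, whose window overlaps that of its sense gene, and LINC00667, which was higher in miR-28 cells at 24 h. Each runs from 250 bases before to 50 after the start in RefSeq (GRCh38.p14), at chr5:112160276-112160575, chr15:50353924-50354223, chr17:58325200-58325499, chr11:10857967-10858266 and chr18:5237850-5238149 in that order, all on the plus strand. Capitals mark any match, on either strand, to the motif CCAAT, the motif CCGGAAG, the motif TATAAA, the motif GGGCGG or the motif CACGTG, and overlapping matches run together.
EPB41L4A-AS1: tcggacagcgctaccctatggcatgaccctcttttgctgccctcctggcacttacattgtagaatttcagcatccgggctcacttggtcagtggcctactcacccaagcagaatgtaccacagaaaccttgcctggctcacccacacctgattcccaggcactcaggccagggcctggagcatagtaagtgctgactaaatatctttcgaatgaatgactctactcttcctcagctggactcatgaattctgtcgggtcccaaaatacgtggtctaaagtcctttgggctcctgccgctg
GABPB1-AS1: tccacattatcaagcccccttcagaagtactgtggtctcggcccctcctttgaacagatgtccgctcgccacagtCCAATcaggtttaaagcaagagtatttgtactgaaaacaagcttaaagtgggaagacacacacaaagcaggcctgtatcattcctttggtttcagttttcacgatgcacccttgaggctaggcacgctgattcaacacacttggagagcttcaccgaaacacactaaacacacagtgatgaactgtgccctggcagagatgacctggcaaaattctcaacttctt
TSPOAP1-AS1: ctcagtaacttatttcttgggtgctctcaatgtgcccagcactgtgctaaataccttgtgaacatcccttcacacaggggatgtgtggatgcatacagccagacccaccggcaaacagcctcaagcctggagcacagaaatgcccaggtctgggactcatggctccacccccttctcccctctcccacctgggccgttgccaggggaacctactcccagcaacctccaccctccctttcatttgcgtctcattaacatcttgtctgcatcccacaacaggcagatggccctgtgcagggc
ZBED5-AS1: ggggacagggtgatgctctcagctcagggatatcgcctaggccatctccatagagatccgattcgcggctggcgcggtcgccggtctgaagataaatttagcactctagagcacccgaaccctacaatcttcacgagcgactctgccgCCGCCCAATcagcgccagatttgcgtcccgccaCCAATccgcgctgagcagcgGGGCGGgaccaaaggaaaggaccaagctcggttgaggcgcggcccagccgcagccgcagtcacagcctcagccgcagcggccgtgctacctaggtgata
LINC00667: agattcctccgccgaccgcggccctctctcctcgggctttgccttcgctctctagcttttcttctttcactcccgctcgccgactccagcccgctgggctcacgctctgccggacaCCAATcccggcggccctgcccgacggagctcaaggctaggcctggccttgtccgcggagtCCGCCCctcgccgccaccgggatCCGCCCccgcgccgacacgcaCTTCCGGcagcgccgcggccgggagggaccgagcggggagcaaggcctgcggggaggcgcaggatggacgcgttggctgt

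The windows of EPB41L4A-AS1 and TSPOAP1-AS1 held none of the 5 motifs, that of GABPB1-AS1 held CCAAT, and those of ZBED5-AS1 and LINC00667 held 4 matches each. Of the 408 member genes, 304 matched a promoter entry. CCAAT stood in 39.8% of member promoters and in 35.7% of all 27305 promoters, CCGGAAG in 12.5% and 10.7%, GGGCGG in 48.0% and 44.6%, CACGTG in 7.89% and 7.43%, and TATAAA in 7.89% and 12.0%. The median GC content was 60.2% in member promoters, 58.3% in all promoters. The median number of CpG sites was 17 in member promoters, 14 in all promoters and 5 in the 11462 promoters of long noncoding RNA genes. Protein-coding genes had a median GC content of 62.7% and 22 CpG sites, so by CpG sites the member promoters lay between the noncoding and the coding ones. These shares are descriptions of letters and were not tested.

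The labels were checked against the data first. RefSeq classed 500 of the 506 probe sets (98.81%) as long noncoding RNA and 0 as protein-coding, 3 as another type, and 3 were not matched. Among the other tested probe sets with 1 symbol the noncoding share was 1.61%. Of 7 B cell markers 6 were matched to a probe set by symbol, at 4010 to 18600 with a median of 9640. T cell, myeloid and fibroblast or epithelial markers had medians of 63.6, 62.3 and 59.2. They ran from 14.6 to 89.8, 19.1 to 84.6 and 23.7 to 515, so 1 fibroblast or epithelial marker stood well above the others. Array medians ran from 73.2 to 93.2. On 2 arrays, miR-28 12 h B2 and control 24 h B2, the 3′ to 5′ log2 ratio of the ACTB control probes was above 1, at 1.05 and 1.59, against 0.265 to 0.865 on the others. Which strand a probe set reads was taken from the annotation and not checked, and 7.91% of members end in _s_at and 4.94% in _x_at, names given to probe sets that may match more than one transcript.

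The noncoding RNAs were dim. Their median intensity was 116, against 400 over all 27306 probe sets tested, and 75 of them (14.8%) lay above that group's median log2 level. The threshold itself set this lower edge. OVOL1-AS1, ASAP1-IT2 and TNRC6C-AS1 stood just above it at mean log2 levels of 6.11, 6.11 and 6.12, and PRKAG2-AS2, a second probe set of NINJ2-AS1 and BAZ2B-AS1 just below it at 6.11, 6.10 and 6.10. Dim probe sets were also the noisier ones. The 177 members under an intensity of 100 had a median coefficient of variation of 53.1% and a median SE of the 24 h fold change of 0.45 on the log2 scale, and the 19 above 1000 had 16.4% and 0.11. The median SE was 0.33 for members and 0.17 for all tested.

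The brightest probe set was EPB41L4A-AS1, host of a small nucleolar RNA and known as a transcript raised by growth arrest. Its lowest, median and highest intensities were 4809, 5236 and 5987 in miR-28 24 h arrays, and it is described with the time comparison. OIP5-AS1, the vertebrate RNA also called Cyrano, came second, with 4947, 5854 and 6260 in miR-28 24 h arrays against 5633, 6272 and 7629 in control 24 h arrays, groups that overlap. THAP9-AS1, LINC00621, ZNF232-AS1, FGD5-AS1, WAC-AS1, PSMB8-AS1, MAPKAPK5-AS1 and a second OIP5-AS1 probe set followed. None of these 10 was called between genotypes at 12 h or at 24 h. Intensities of different probe sets are not amounts of RNA and give no order of abundance.

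At 12 h of induction almost none of the noncoding RNAs differed between miR-28 and control cells beyond the spread between arrays. In limma's moderated test, with Benjamini-Hochberg adjustment over all 27306 probe sets and a call at an adjusted p under 0.05, 0 members were higher and 1 was lower in miR-28 cells. That is 0.198% of members, where 0.165% of all tested probe sets were called (0.0439% higher and 0.121% lower). At an unadjusted p under 0.05 the shares were 10.3% of members and 8.02% of all. The arrays measured bulk RNA scaled to a common level, so fewer cells making a transcript and less of it per cell cannot be told apart.

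The called probe set was KIF9-AS1, antisense at the gene of a kinesin motor. Its lowest, median and highest intensities were 15.5, 73.0 and 112 in miR-28 12 h arrays, against 102, 185 and 242 in control 12 h arrays. Of the 6 miR-28 arrays, 5 lay below all control arrays. It fell by 1.61 ± 0.33 (SE) on the log2 scale (limma, adjusted p = 0.0482). The call ended with no population block (adjusted p = 0.0624) and when any of 16 of the 24 arrays was left out in turn, with an adjusted p of up to 0.112 without control 12 h A1. At 24 h the difference was -0.27 (adjusted p = 0.764). KIF9 itself differed by 0.09 at 12 h (adjusted p = 0.952).

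Members next in line at 12 h were not called. C10orf95-AS1 had 276, 303 and 360 in miR-28 arrays against 150, 239 and 265 in control arrays, groups that did not overlap, with a difference of 0.52 and an adjusted p of 0.201. JMJD1C-AS1, antisense at the gene of a histone demethylase family member, differed by 0.57 (adjusted p = 0.13), and the groups overlapped. LINC01857, NINJ2-AS1, SCAMP1-AS1 and LINC02693 had positive differences of 0.52 to 1.01, and PTOV1-AS2, AFAP1-AS1, ITGB2-AS1, NUTM2B-AS1 and KRT10-AS1 negative ones of -1.25 to -0.29. Second member probe sets of C10orf95-AS1, PTOV1-AS2, NUTM2B-AS1 and ITGB2-AS1 stood at 0.05, 0.51, -0.09 and 0.03, so these genes' probe sets did not move together. Groups of 6 against 6 arrays did not overlap for 3 members (0.593%), against 0.67% of all tested. The median difference was 0.06 over members and 0.00 over all tested.

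**Figure D1:**
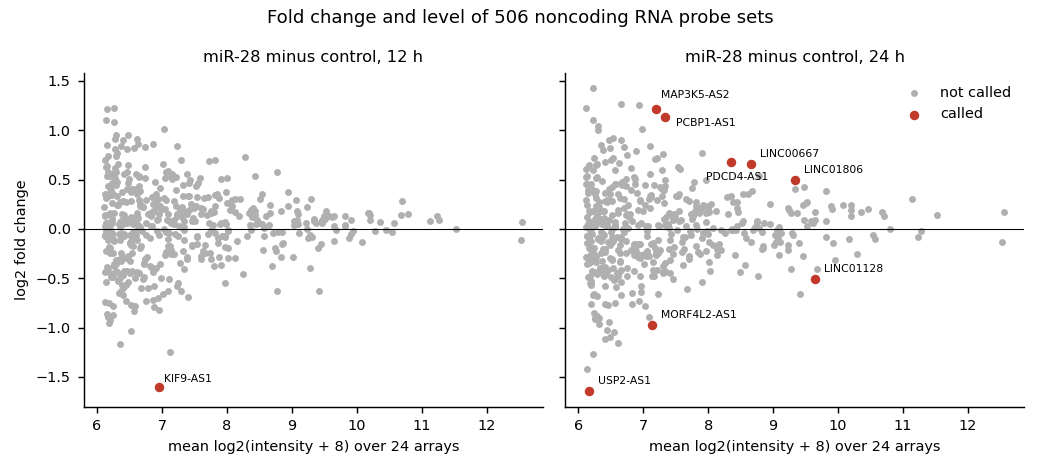
Log2 fold change of miR-28 over control cells at 12 h (left) and 24 h (right) for the 506 noncoding RNA probe sets, against the mean log2(intensity + 8) over 24 arrays. Red points were called (1 at 12 h, 8 at 24 h), and the grey points spread more widely at low levels.

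After 24 h of induction 8 noncoding RNA probe sets differed, 5 higher and 3 lower in miR-28 cells. LINC00667, PCBP1-AS1, PDCD4-AS1, MAP3K5-AS2 and LINC01806 rose, and LINC01128, USP2-AS1 and MORF4L2-AS1 fell. The 8 are 1.58% of members, where 2.75% of all tested were called (1.27% higher and 1.48% lower), so the noncoding RNAs were called at a share no higher than the background. The members are dimmer and had a median SE of 0.33 against 0.17, so the shares compare probe sets of unlike level and precision. By intensity, 1 of 177 members under 100 was called, 3 of 228 from 100 to 300, 4 of 82 from 300 to 1000 and 0 of 19 above. Members differed without overlap in 5 cases (0.988%), against 2.46% of all tested, and the median difference was -0.00 for members and 0.01 for all. The split of 5 higher to 3 lower was 7 to 2 after centring each array on its median and 4 to 2 after quantile normalization. Over all tested it was 348 higher to 403 lower, and 425 to 198 after median centring. With no population block 5 were called, and LINC01806, MAP3K5-AS2 and MORF4L2-AS1 were not (adjusted p of 0.0597 to 0.0653). The count was 4 without control 24 h B3 or miR-28 24 h B2, and 5 without control 12 h A1 or miR-28 24 h A3.

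LINC00667 had 409, 465 and 551 in miR-28 24 h arrays against 221, 302 and 369 in control 24 h arrays. The groups did not overlap. It rose by 0.66 ± 0.12 (limma, adjusted p = 0.00287). Its other 3 member probe sets had differences of 0.26, 0.35 and 0.32, none called. LINC01128 had 492, 652 and 716 in miR-28 arrays against 785, 911 and 971 in control arrays, again without overlap, and fell by 0.51 ± 0.10 (adjusted p = 0.00699). The called LINC01128 probe set ends in _s_at. The 2 dimmer LINC01128 member probe sets stood at 0.04 and -0.09 and were not called, and 3 below the threshold, not tested, at -0.50, 0.05 and -0.45. Both calls held with each array left out in turn.

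USP2-AS1, antisense at the gene of a deubiquitinating enzyme, was the largest difference called at 24 h and lay near the threshold in level. Its intensities were 7.49, 19.5 and 71.8 in miR-28 arrays against 61.1, 85.8 and 174 in control arrays, and 5 of 6 miR-28 arrays lay below all controls. The miR-28 24 h median lay below the level of the dimmest member, 61.2, so USP2-AS1 passed the filter through its other groups. Its lowest value was under the 8 added to intensities, where the log2 scale is compressed. USP2-AS1 fell by 1.65 ± 0.35 (adjusted p = 0.00987), a call that held without each array, while USP2 differed by 0.23 (adjusted p = 0.345). MORF4L2-AS1, at the gene of a chromatin-modifying complex subunit, had 25.1, 90.0 and 137 in miR-28 arrays against 90.5, 178 and 213 in control arrays. It fell by 0.98 ± 0.27 with an adjusted p of 0.0498, and the call ended without any of 18 arrays left out in turn (adjusted p up to 0.109 without miR-28 24 h B3). Its second probe set differed by 0.43, in the other direction, and was not called.

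PDCD4-AS1, antisense at the gene of a translation inhibitor, had 319, 388 and 507 in miR-28 arrays against 163, 263 and 287 in control arrays, with no overlap, and rose by 0.68 ± 0.17 (adjusted p = 0.0296). The call ended without control 24 h B2 or B3 or miR-28 24 h A2, B2 or B3 (adjusted p up to 0.0766). PCBP1-AS1, antisense at the gene of an RNA-binding protein, had 167, 176 and 220 in miR-28 arrays against 37.7, 87.8 and 174 in control arrays and rose by 1.14 ± 0.25 (adjusted p = 0.0135). The 6 control arrays were scattered and those of population B were lower, as the plot by array shows. Its other 3 member probe sets had differences of 0.40, 0.02 and 1.05, none called, and the brightest of them was the one at 0.02. The 4 below the threshold stood at 0.40, 0.43, -0.23 and 0.62 and were not tested.

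MAP3K5-AS2, at the gene of a stress-activated kinase, had 106, 231 and 318 in miR-28 arrays against 38.0, 95.7 and 112 in control arrays and rose by 1.22 ± 0.33 (adjusted p = 0.0453). LINC01806 had 597, 808 and 920 in miR-28 arrays against 466, 556 and 624 in control arrays and rose by 0.49 ± 0.13 (adjusted p = 0.0471), with a second probe set at 0.40. In each, 5 of 6 miR-28 arrays lay above all control arrays, and each call ended without any of 14 arrays left out in turn (adjusted p up to 0.109 and 0.104). TRG-AS1 (0.77, adjusted p = 0.0586, no overlap), AFAP1-AS1 (-0.66, adjusted p = 0.0761), LINC02314 (-1.43, adjusted p = 0.093) and a TRIM52-AS1 probe set (-1.10, adjusted p = 0.112) were next and were not called.

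**Figure D2:**
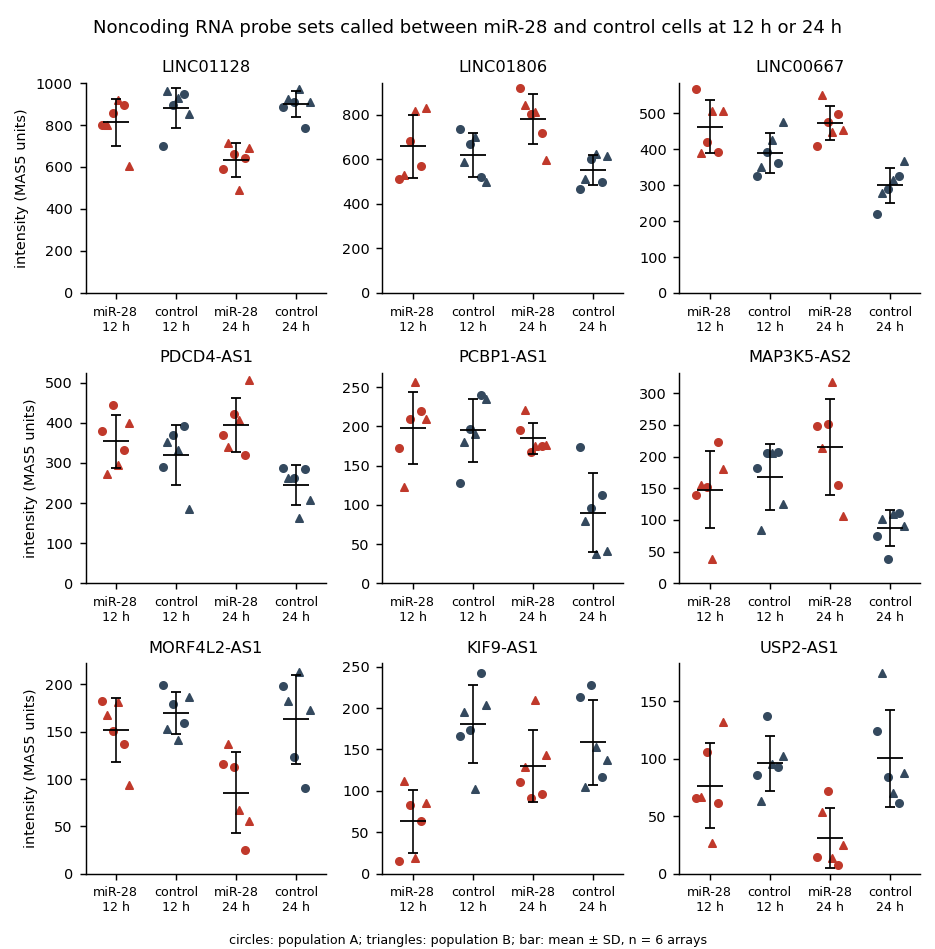
Intensity (MAS5 units, linear axis from 0) of the 9 noncoding RNA probe sets called between genotypes, in 6 arrays per group, with miR-28 cells left of control cells at each time. Circles are population A, triangles population B, and bars show the mean ± SD. At the time of the call LINC00667, LINC01128 and PDCD4-AS1 show no overlap between genotypes, and the other 6 overlap.

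Averaged over both times, 17 member probe sets were called, 9 higher and 8 lower in miR-28 cells. They are 3.36% of members against 4.3% of all tested (2.13% higher and 2.17% lower). The count was 11 without control 12 h B3, 11 with the replicate block and 13 with no population block, where PDCD4-AS1, PSMA3-AS1, PSMB8-AS1 and SCAMP1-AS1 were not called (adjusted p of 0.0675 to 0.0779). LINC01857 rose by 0.56 ± 0.11 (limma, adjusted p = 0.00266), with 357, 455 and 551 in miR-28 24 h arrays against 228, 325 and 378 in control 24 h arrays. LINC01410, TRG-AS1, LINC01560, SCAMP1-AS1, PSMA3-AS1 and PSMB8-AS1 rose by 0.54, 0.64, 0.56, 0.53, 0.27 and 0.21, beside LINC00667 (0.45) and PDCD4-AS1 (0.42). SCAMP1-AS1, PSMA3-AS1 and PSMB8-AS1 stood at adjusted p of 0.0418, 0.0396 and 0.0486, and 2 brighter PSMA3-AS1 probe sets at 0.07 and 0.06, not called. Another PSMB8-AS1 probe set, below the threshold and not tested, stood at -0.36 ± 0.41. PSMB8-AS1 lies at the gene of an immunoproteasome subunit, and PSMA3-AS1 at that of a proteasome core subunit.

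The 8 that were lower averaged over both times included AFAP1-AS1, ITGB2-AS1 and LINC00294, with averaged differences of -0.65, -0.55 and -0.40. AFAP1-AS1, known from carcinoma cells where it is often raised, had 307, 559 and 705 in miR-28 12 h arrays against 674, 790 and 1000 in control 12 h arrays, and 404, 570 and 851 in miR-28 24 h arrays against 755, 900 and 1160 in control 24 h arrays. The groups overlapped at both times, but 5 of 6 and 4 of 6 miR-28 arrays lay below all controls, and the averaged call (adjusted p = 0.0058) held without each array. The populations differed: 12 h means were 653 in A and 394 in B of miR-28 cells, and 719 and 860 in control cells. Over all alternatives the averaged difference ran from -0.99 to -0.31. ITGB2-AS1, at the gene of the leukocyte integrin beta chain, had an adjusted p of 0.0186. Its called probe set ends in _s_at, and a dimmer member probe set stood at -0.20 (limma, adjusted p = 0.787). KRT10-AS1 and THAP7-AS1 differed by -0.25 and -0.62, beside KIF9-AS1 (-0.94), USP2-AS1 (-1.02) and LINC01128 (-0.32). Other AFAP1-AS1 and THAP7-AS1 probe sets, below the threshold and not tested, stood at -0.13 ± 0.33 and 0.16 ± 0.33. The call of KRT10-AS1 ended without control 12 h B3 and that of LINC01560 without miR-28 24 h A1, at adjusted p of 0.0505 and 0.0508. Those of THAP7-AS1, PDCD4-AS1, PSMA3-AS1, SCAMP1-AS1 and PSMB8-AS1 ended without any of 4, 11, 15, 15 and 19 arrays (adjusted p up to 0.0561, 0.087, 0.0783, 0.0869 and 0.0987).

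The effect of miR-28 did not pass the test for a difference between the times in any member. At an adjusted p under 0.05 limma called 0 of 506 members and 0.0% of all tested, and 40 members (7.91%) had an unadjusted p under 0.05, against 5.82% of all tested. Among the largest differences of the miR-28 effect, 24 h minus 12 h, were ADAD2-AS1 (-2.13, adjusted p = 0.643), LINC00605 (-1.62), TRIM52-AS1 (-1.56), DLG5-AS1 (-1.43), MAP3K5-AS2 (1.47) and PCBP1-AS1 (1.12). KIF9-AS1 was called at 12 h alone and 8 others at 24 h alone, but the difference between the times was not called for any of them.

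Between 24 h and 12 h of induction, several of the brighter noncoding RNAs were lower at 24 h, and 3 genes were called in both genotypes: EPB41L4A-AS1, GABPB1-AS1 and TSPOAP1-AS1. In control cells 7 members were lower and 0 higher at 24 h, which is 1.38% of members against 3.09% of all tested (1.5% lower and 1.59% higher). In miR-28 cells 9 were lower and 2 higher, 2.17% against 1.88% (0.901% lower and 0.981% higher). The split over all tested was 246 lower and 268 higher in miR-28 cells, and 410 lower and 433 higher in control cells. Scaling bore on this. After centring arrays on their medians, members called in miR-28 cells were 1 lower (TSPOAP1-AS1) and 2 higher, with 66 lower and 529 higher over all, and after quantile normalization they were 8 and 2. In control cells both scalings left 4 lower and 0 higher, with 177 lower and 297 higher over all after centring.

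EPB41L4A-AS1, whose promoter is printed above, had 4809, 5236 and 5987 in miR-28 24 h arrays against 6832, 7211 and 7765 in miR-28 12 h arrays. In control cells it had 4274, 4734 and 5272 at 24 h against 5755, 6741 and 8535 at 12 h. Neither genotype's groups overlapped. It fell by 0.44 ± 0.09 in miR-28 cells (limma, adjusted p = 0.0111) and by 0.54 ± 0.09 in control cells (adjusted p = 0.0015). In miR-28 cells the call was lost after median centring (-0.34, adjusted p = 0.0607). A second, dimmer probe set stood at -0.44 and -0.55 and was not called.

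GABPB1-AS1, antisense at the gene of a GA-binding protein subunit, had 1054, 1218 and 1428 at 24 h against 1522, 1719 and 2302 at 12 h in miR-28 cells, and 1095, 1251 and 1497 at 24 h against 1543, 1821 and 2157 at 12 h in control cells, without overlap in either. It fell by 0.54 ± 0.11 (adjusted p = 0.0112) in miR-28 cells and by 0.51 ± 0.11 (adjusted p = 0.0111) in control cells. After median centring the adjusted p was 0.0548 in miR-28 cells. Its other 3 member probe sets, all dimmer, had differences of -0.30, 0.18 and 0.30 in miR-28 cells. TSPOAP1-AS1 had 708, 766 and 807 at 24 h against 1044, 1222 and 1320 at 12 h in miR-28 cells, without overlap, and fell by 0.64 ± 0.09 (adjusted p = 0.000873). In control cells it had 763, 806 and 979 at 24 h against 953, 1118 and 1387 at 12 h, with overlap, and fell by 0.42 ± 0.09 (adjusted p = 0.0133). Its second, brighter probe set stood at -0.61 and -0.34 and was not called.

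**Figure D3:**
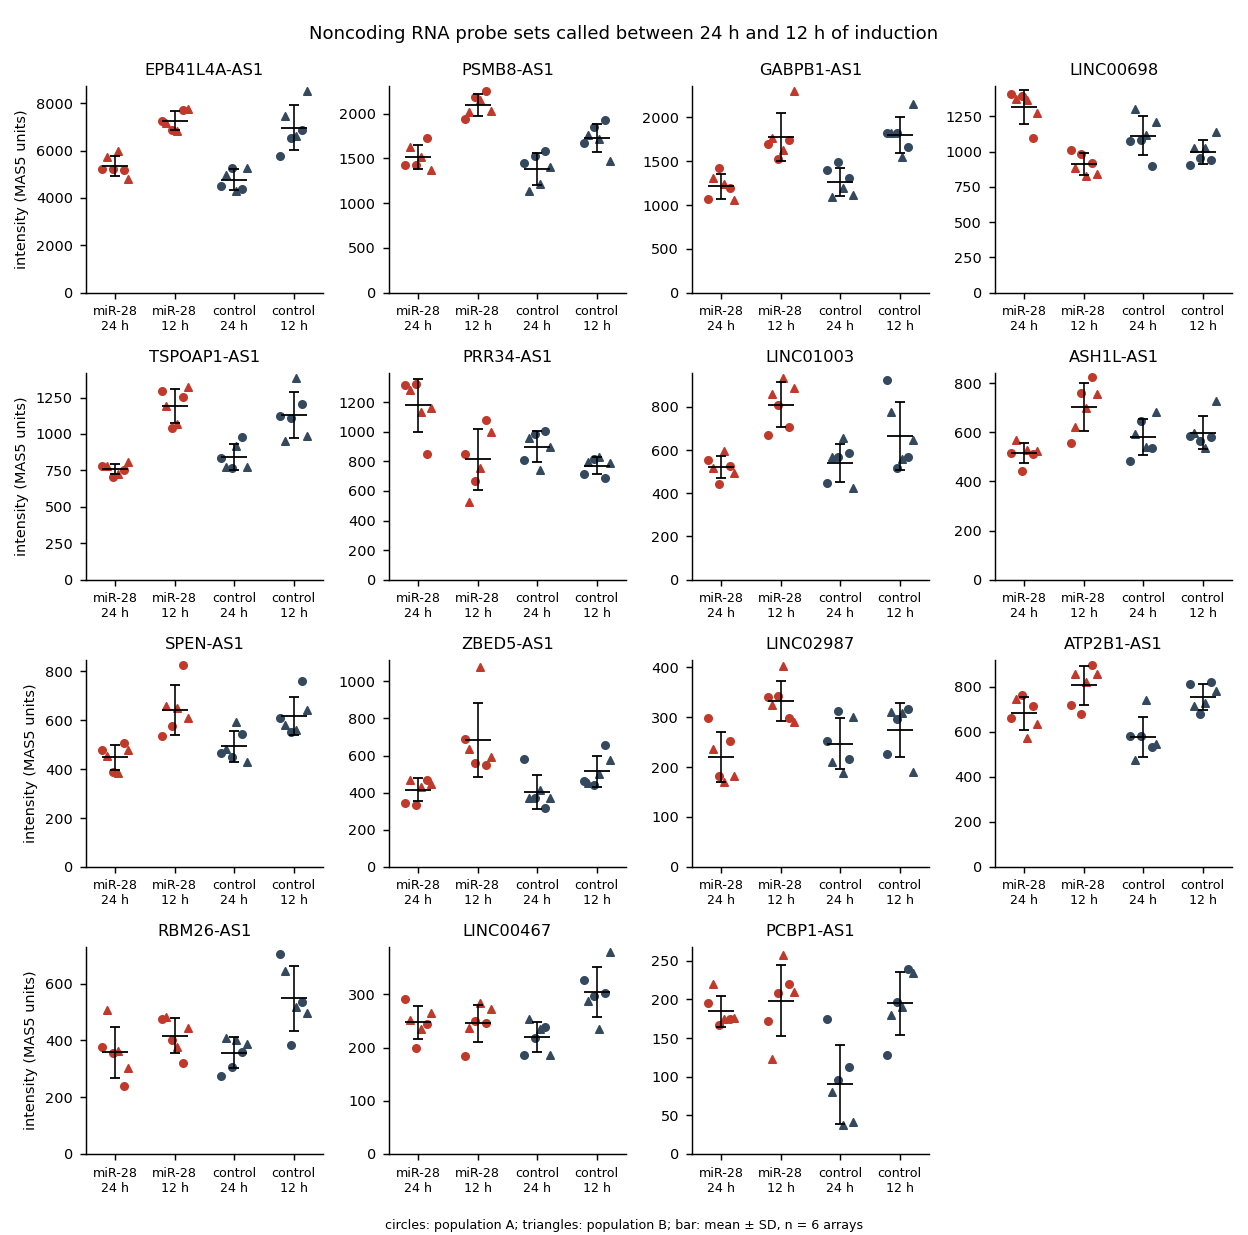
Intensity (MAS5 units, linear axis from 0) of the 15 noncoding RNA probe sets called between 24 h and 12 h in either genotype, with 24 h left of 12 h within each genotype and 6 arrays per group. Circles are population A, triangles population B, and bars show the mean ± SD. EPB41L4A-AS1 and GABPB1-AS1 separate by time in both genotypes.

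In miR-28 cells PSMB8-AS1 had 1375, 1472 and 1734 at 24 h against 1943, 2094 and 2259 at 12 h, with no overlap, and fell by 0.47 ± 0.09 (limma, adjusted p = 0.009). LINC01003, SPEN-AS1 and ZBED5-AS1 fell by 0.63, 0.50 and 0.68 and did not overlap between times, and ASH1L-AS1 and LINC02987 fell by 0.43 and 0.60 with overlap. The LINC01003 probe set ends in _s_at. A second, dimmer LINC02987 probe set differed by 0.73, in the other direction, and was not called. LINC00698 was the clearest of the higher ones, with 1094, 1370 and 1410 at 24 h against 829, 903 and 1014 at 12 h, and rose by 0.53 ± 0.09 (adjusted p = 0.00423). PRR34-AS1 rose by 0.56 ± 0.14 (adjusted p = 0.0462). In control cells PCBP1-AS1, ATP2B1-AS1, LINC00467 and RBM26-AS1 fell by 1.19, 0.40, 0.45 and 0.60. A second, brighter RBM26-AS1 probe set differed by -0.08 (adjusted p = 0.828). The PCBP1-AS1 fall and its difference between genotypes at 24 h share the control 24 h arrays. CLN8-AS1 (1.57, adjusted p = 0.0674), LINC02693 (1.00), RUSC1-AS1 (0.62) and a dimmer OIP5-AS1 probe set (0.37) were not called in control cells. The brighter OIP5-AS1 probe sets differed there by 0.06 and -0.04. KIF9-AS1 (1.15) and PRKCQ-AS1 (0.53) were not called in miR-28 cells.

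Within single populations, all 18 called time differences had the same sign in A and in B. They were called on the arrays of A and B together, so a shared sign was largely fixed in advance and is no separate support. For EPB41L4A-AS1 the differences in A and B were -0.48 and -0.40 in miR-28 cells and -0.44 and -0.64 in control cells. For PCBP1-AS1 in control cells they were -0.53 and -1.84. With 3 arrays at each time none of the 18 was called in a single population. Time differences without overlap numbered 15 among members in miR-28 cells (2.96% against 2.57% of all), and 5 in control cells (0.988% against 2.81%). The calls of ZBED5-AS1 ended without miR-28 12 h B1 or B2 or 24 h A1 or A2, and those of ASH1L-AS1, LINC02987, PRR34-AS1, ATP2B1-AS1, LINC00467 and RBM26-AS1 without any of 7, 19, 19, 10, 9 and 14 arrays. The control count was 4 without control 12 h B1 or control 24 h A2.

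Several probe sets measured one gene in 73 member genes (171 probe sets), and these often disagreed. All probe sets of a gene had the same sign in 35 of the 73 for the genotype difference at 24 h, 29 at 12 h, 36 for time in miR-28 cells and 41 in control cells. For the genotype difference at 24 h the member probe sets of LINC00667 and of LINC01806 shared a sign, and those of MORF4L2-AS1 and of LINC02987 did not.

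**Figure D4:**
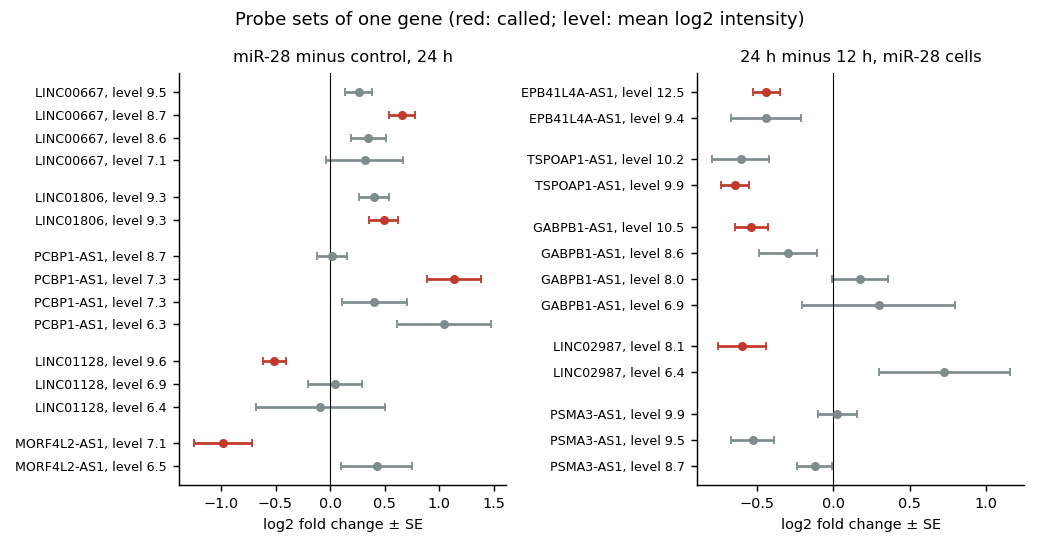
Log2 fold change ± SE of each member probe set of named genes, for miR-28 over control at 24 h (left) and 24 h over 12 h in miR-28 cells (right). The level is the mean log2(intensity + 8), and red points were called. The 4 LINC00667 probe sets lie above 0, and the 2 of MORF4L2-AS1 lie on opposite sides.

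Sense genes were set beside their antisense or intronic transcripts. Of the 263 antisense and intronic genes, 241 had a sense partner with a probe set of a single gene symbol. The pairs tested were 193, of 192 partner genes. At 24 h 2 partners were higher and 1 was lower in miR-28 cells, where 2.75% of all tested probe sets were called. Of 193 pairs, 107 lay on one side of 0. The Pearson correlation across pairs was 0.068 at 24 h, 0.017 at 12 h, 0.146 averaged over times, 0.013 for time in control cells and -0.072 in miR-28 cells, as a description, since pairs share the arrays. Over the 23 pairs with overlapping promoter windows it was 0.109, 0.216, 0.083, 0.56 and -0.26 in the same order. Averaged over times, 5 partners were higher and 4 lower, where 4.3% of all tested probe sets were called. Both transcripts were called in 2 pairs, ITGB2-AS1 (-0.55) with ITGB2 (-0.31) and PSMB8-AS1 (0.21) with PSMB8 (0.26). The other ITGB2-AS1 member probe set, at -0.20, was not called. Time calls on partners were 5 higher and 6 lower in control cells and 3 and 4 in miR-28 cells, where 3.09% and 1.88% of all tested were called.

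ZBED5-AS1 and ZBED5, a gene derived from a transposase, were the 1 pair called together over time. Their promoter windows share 263 bases on opposite strands. ZBED5-AS1 had 332, 439 and 469 at 24 h against 552, 613 and 1078 at 12 h in miR-28 cells and fell by 0.68 ± 0.16 (limma, adjusted p = 0.0291), and ZBED5 fell by 0.31 ± 0.06 (adjusted p = 0.00959). In control cells ZBED5 fell by 0.38 and ZBED5-AS1 differed by -0.36 (adjusted p = 0.261). Of 172 pairs with both promoters listed, 166 lay on opposite strands and 26 (15.1%) had overlapping windows. KIF9-AS1, USP2-AS1 and MORF4L2-AS1 fell at their times while their partners differed by 0.09, 0.23 and 0.06 and were not called.

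LPP, the gene whose intron carries miR-28, had mean intensities of 1242 in miR-28 against 1972 in control cells at 12 h, a log2 difference of -0.67 (limma, adjusted p = 0.0194). At 24 h the means were 1393 in miR-28 and 2451 in control cells, and the difference was -0.81 (adjusted p = 0.000436). LPP-AS2, its antisense transcript, had 30.7, 62.6 and 129 in miR-28 24 h arrays against 38.9, 94.8 and 180 in control 24 h arrays, groups that overlapped widely. Its differences were -0.32 ± 0.40 at 12 h and -0.45 ± 0.40 at 24 h (adjusted p = 0.934 and 0.65).

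**Figure D5:**
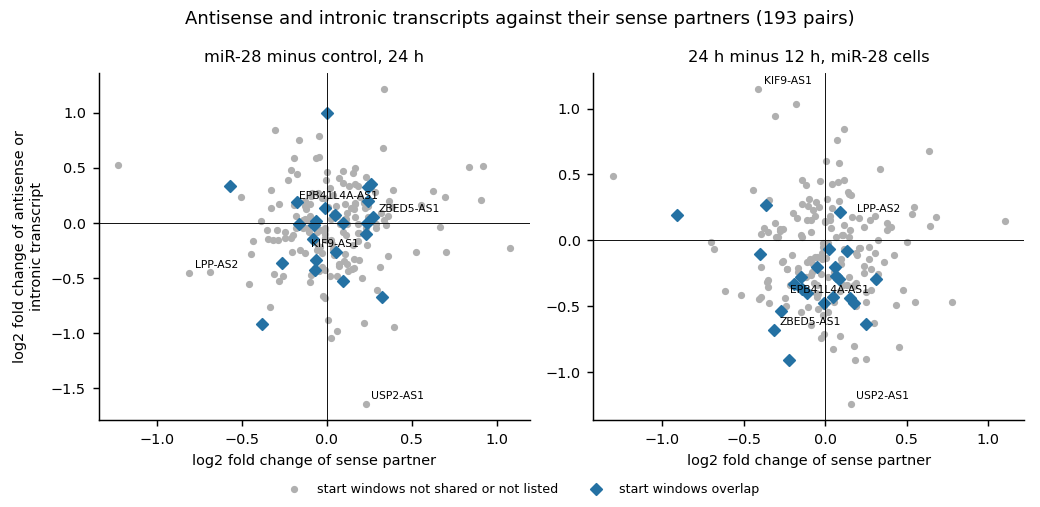
Log2 fold change of antisense or intronic transcripts against that of their sense partners, 193 pairs, for miR-28 over control at 24 h (left) and 24 h over 12 h in miR-28 cells (right). Blue diamonds are pairs whose promoter windows overlap. ZBED5-AS1 and ZBED5 lie below 0 together in the right panel.

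Other long noncoding RNAs, named otherwise and not members, gave 17 tested of 26 matched to a probe set by symbol. At 12 h, where 0.165% of all tested were called, 1 was higher in miR-28 cells, HCP5 of the HLA region. Its means were 134 in miR-28 and 31.8 in control 12 h arrays, with a difference of 1.93 ± 0.36 (limma, adjusted p = 0.0232). The control 12 h mean lay below the level of the dimmest member, 61.2. With a mean log2 level of 6.37, near the threshold of 6.1082, HCP5 passed the filter mainly through its miR-28 groups. Its 24 h means were 153 in miR-28 and 63.8 in control arrays, a difference of 1.22 that was not called (adjusted p = 0.0731). At 24 h, where 2.75% of all tested were called, 2 were lower, DLEU2, host of miR-15a and miR-16-1 (-0.44, adjusted p = 0.0136), and NORAD, which binds Pumilio proteins (-0.39, adjusted p = 0.0162). NORAD was also lower at 24 h than at 12 h in miR-28 (-0.49) and control cells (-0.39), and TUG1 in miR-28 cells (-0.41). The list of nuclear exosome and RNA turnover factors gave 33 tested genes, and only some of these degrade noncoding transcripts themselves. Among the 33 limma called 0 between genotypes, and 3 had an unadjusted p under 0.05 at each time. Of all tested, 8.02% had one at 12 h and 15.7% at 24 h, so few calls among 33 would be looked for. In control cells EXOSC9 and NCBP1 were higher at 24 h, by 0.61 and 0.32, and 0 were called with time in miR-28 cells, where 7 had an unadjusted p under 0.05. Of all tested, 3.09% were called with time in control cells and 1.88% in miR-28 cells, where 15.4% had an unadjusted p under 0.05. The largest genotype statistics were those of EXOSC4 (-0.24) and SMG6 (-1.01) at 12 h and EXOSC8 (-0.24) and EXOSC9 (-0.33) at 24 h.

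Between the 2 populations of one vector no noncoding RNA was called. Of 506 members, limma called 0 for population B minus A in control cells (0.00366% of all tested) and 0 in miR-28 cells (0.0%), and 46 (9.09%) in control cells and 33 (6.52%) in miR-28 cells had an unadjusted p under 0.05, against 7.42% and 4.8% of all tested. LINC01088 was not called in either vector. In miR-28 cells its mean was 432 in B against 645 in A at 24 h, and in control cells 337 in B against 708 in A. The differences over both times were -0.67 (adjusted p = 0.786) and -0.81 (adjusted p = 0.0965). SYT9-AS1 was at 1.10 (adjusted p = 0.0665) in control cells and -0.47 in miR-28 cells, and NUTM2A-AS1 at 0.91 (adjusted p = 0.423) in miR-28 cells. The others with the largest statistics were LINC00592 (1.40), SCOC-AS1 (1.08), NFYC-AS1 (-0.68) and TMEM44-AS1 (0.43) in control cells, and ERCC6L2-AS1 (1.01), DDX11-AS1 (0.90), TNFRSF14-AS1 (-0.74) and AFAP1-AS1 (-0.55) in miR-28 cells, none of them called. Since each population carried 1 vector, population and genotype differ together, and with 2 populations a vector p-values reflect array-to-array spread and say little on populations made anew. With the population means as the unit, 2 against 2, no comparison called a member.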

How the data were processed

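RNA of 24 samples, 6 in each of 4 groups, was measured on Affymetrix arrays. The authors deposited linear MAS5 intensity for each probe set, per the submitters' processing notes, and its settings are not given in the sources used here. Trimmed by 2%, every array's mean came to 500.07 or 500.08, and no further scaling was applied. Precision is limited by how many arrays there are. Detection calls were not used here.

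Values were analysed as log2(intensity + 8), a scale that understates changes of dim probe sets. All 27306 probe sets above the median level were fitted in R 4.3.3 (limma 3.58.1, statmod 1.5.0) as group means of genotype and time, where the population entered as a random block (consensus correlation -0.0249, which narrows genotype differences, since each population has 1 genotype: the median SE of the averaged one was 0.117, and 0.125 with no block), and tested by two-sided moderated statistics with Benjamini-Hochberg adjustment. Tables were made with Python 3.11.15. The fit was tested on simulated data. Members and lists were chosen with earlier results of these data known.

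Probe sets named are the members called in a genotype or time comparison (the 15 largest where more were called), the 6 (12 h, 24 h) or 4 (time, interaction) largest statistics each way, the 10 brightest, the 3 nearest the threshold on each side, the other probe sets and sense partners of these, the 6 largest population differences, and the called and 2 largest list members. SCAMP1-AS1 and PSMB8-AS1, beyond 15 in the averaged comparison, are named by other parts of that rule. LPP-AS2, and sequences shown, were chosen after values were seen. Alternatives covered scaling, pseudocount, filter, block, variance prior, 1 probe set per gene, groups in the fit, symbols, arrays and populations left out.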

Additional observations from a re-analysis of the deposited data

Results flagged for a closer look

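Among 33 called probe sets, 132 groups of 6 arrays were examined on the log2 scale for a single array standing apart from the other 5, and 6 groups held one. Chance alone flags about 1 group in 20. GABPB1-AS1 stood at 2300 in miR-28 12 h B3, where the others ran from 1520 to 1770. ZBED5-AS1 stood at 1080 in miR-28 12 h B2, where the others ran from 552 to 689, and MAP3K5-AS2 was lowest in the same array at 38.7, where the others ran from 139 to 223. LINC01128 was lowest in miR-28 12 h B3 at 604, where the others ran from 799 to 918. PRR34-AS1 was lowest in miR-28 24 h A3 at 851, where the others ran from 1140 to 1320. ASH1L-AS1 was highest in control 12 h B3 at 728, where the others ran from 534 to 598. Array miR-28 12 h B2 is 1 of the 2 with a high 3′ to 5′ ACTB ratio, and its part in these values was not tested.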

How the results depend on the processing

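The alternatives were run on 73 member values, 44 called and 29 not called, in the genotype and time comparisons, and none of these changed direction. Other probe sets, sense partners, listed genes and population differences were not rerun. Of the 44 called values, 25 kept their call with each single array left out and 0 in every alternative, and 7 of the 29 others were called in some alternative. The main counts of members called were 1 for miR-28 against control at 12 h, 8 at 24 h, 17 averaged, 7 for time in control cells and 11 for time in miR-28 cells. Population means, 2 against 2, gave 0 in each of these. Population letter A alone gave 0 at 12 h, 0 at 24 h, 1 averaged and 0 for time in either genotype, and letter B alone 0, 0, 0, 0 for time in control cells and 1 in miR-28 cells, fits with fewer arrays. At 12 h the count was 0 under median centring, a pseudocount of 1, the 75th percentile filter, no block, the fit of only the groups compared, and without the 2 arrays of high ACTB ratio. At 24 h it was 5 under the 75th percentile filter and 5 with no block. The averaged count was 8 under the 75th percentile filter. Time in control cells gave 4 under median centring, 4 under quantile normalization, 2 with no filter and 2 with only the groups compared. Time in miR-28 cells gave 3 under median centring, 3 with no filter and 5 with only the groups compared. The no-filter fit tests more probe sets and the fit of the compared groups uses fewer arrays. The 75th percentile filter left 75 candidates to test, without KIF9-AS1. The cause of the other changes was not tested. Leaving out 1 array at a time gave 0 to 2 at 12 h (2 without miR-28 12 h B1), 4 to 8 at 24 h, 11 to 21 averaged (11 without control 12 h B3), 0 to 0 for the difference of effects, 4 to 9 for time in control cells and 8 to 12 in miR-28 cells. The replicate block, which shares only numbers, gave 0 at 12 h and 11 averaged. Same-numbered arrays correlated by -0.107 to 0.078. Dim probe sets limit the precision.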
